A study of Mus musculus with 46 samples.

Results

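The response of hippocampal microglia to lipopolysaccharide (LPS) was described from 9 of the 46 libraries of the series, all those of the hippocampal table. They were chosen by their labels, 4 taken 6 h after LPS and 5 at steady state. Microglia are the resident macrophages of the brain. Here they were sorted from the hippocampus of mice aged 10 to 12 weeks as CD45int CD11b+ F4/80+ cells without Ly6C or Ly6G, and their polyadenylated RNA was sequenced in bulk. Dicer-deficient mice had the strain entry Cx3cr1CreER:Dicerfl/-. The controls, called WT in the titles, were Cx3cr1CreER:Dicer+/-, so both genotypes carried the Cre recombinase and an allele of Dicer written as -. CreER is a Cre that tamoxifen activates, and Cx3cr1 drives it in microglia and in other mononuclear phagocytes. The dosing scheme of tamoxifen is not given in the sources used here. LPS was given at 1 mg/kg into the peritoneum. The groups held 2 Dicer-deficient and 2 control libraries after LPS, and 3 Dicer-deficient and 2 control libraries at steady state. Whether steady-state mice received a vehicle, and whether each library is 1 mouse, is not given in the sources used here. The p-values therefore measure the spread between these libraries. The comparison asks which transcripts differ 6 h after LPS in both genotypes together, and whether the difference depends on the genotype.

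LPS is a component of the outer membrane of Gram-negative bacteria. It is handed by Cd14 and Ly96 to the receptor Tlr4, whose adaptors Myd88 and Tirap lead to nuclear factor kappa B (NF-kB) and whose adaptors Ticam1 and Ticam2 lead to interferon regulatory factors. The NF-kB branch is known to turn on cytokines, chemokines and its own inhibitors, and the interferon branch acts back on cells through the interferon receptors. After LPS in the periphery, microglia are known to lose much of the transcript profile that marks them at rest.

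Values below are normalized read counts as deposited, whole reads multiplied by 1 factor per library. Changes are log2 fold changes ± standard error (SE) of LPS minus steady state, fitted with genotype as a covariate to log2(value + 1), a scale that understates the change of low genes. A gene is called, and is said to have risen or fallen, when its Benjamini-Hochberg adjusted p over all tested genes was under 0.05. Where values are listed, those of LPS libraries come in the order Dicer-deficient 18 and 20, control 15 and 16, and those of steady-state libraries in the order Dicer-deficient 4, 5 and 6, control 1 and 2.

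The libraries held 1817611 to 4143142 reads. The 13 microglial markers summed to 136292 to 160441 after LPS and to 154275 to 181983 at steady state. With limma 7 of the 13 fell and 0 rose (9 and 0 with edgeR and DESeq2, and 10 and 0 at an unadjusted p under 0.05), with a median of -0.98. C1qa, a complement component, was at 44846, 50118, 38477 and 53139 after LPS and at 36511, 39588, 42307, 40494 and 43448 at steady state. Control steady-state library 1 stood apart with Cx3cr1, the fractalkine receptor, at 688, against 1523 to 7139 in the other 8. Sex-linked transcripts moved with the treatment. Xist, the RNA that silences an X chromosome in females, was at 9.72, 1.35, 4.89 and 1.27 after LPS and at 676, 693, 622, 1429 and 3.91 at steady state. Ddx3y, a Y-linked gene, was at 1299, 344, 432 and 208 and 182, 209, 192, 2.74 and 334. The Dicer-deficient steady-state libraries held both transcripts, control steady-state library 1 mainly Xist, and the other 5 libraries mainly Ddx3y. Of the steady-state libraries only control library 2 thus paired a high Ddx3y with a low Xist, as the LPS libraries did. With the Xist level of each library as a second covariate, 456 genes were called, 241 higher and 215 lower. That fit called 9 of 21 feedback inhibitors, 8 of 16 glucocorticoid-response genes, 7 of 17 acute phase genes, 5 of 16 chemokines, 3 of 40 type I interferon genes and 0 of 18 class I genes higher. It called 11 of 34 homeostatic and 4 of 10 class II genes lower. Xist nearly follows the treatment in these libraries, so this fit can barely separate sex from LPS. A call lost in it therefore does not assign a gene to sex. How much of the results below belongs to sex was not tested beyond this fit.

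Markers of other cells moved with the treatment too. The summed level of 20 monocyte and neutrophil markers was 493 to 1786 after LPS and 1694 to 9105 at steady state, with the 3 highest sums in the Dicer-deficient steady-state libraries. Among its members, S100a8, a calcium-binding protein of neutrophils, was at 18.1, 5.38, 217 and 1.90 after LPS against 2065, 1564, 1533, 104 and 498, whereas the neutrophil surface gene Ly6g was at 0 to 3.11 in all 9 libraries. Csf3r, on the same list, was at 705, 470, 467 and 414 against 1135, 934, 849, 1113 and 777. It gave most of the sum in Dicer-deficient LPS library 18 and control LPS library 16. Hp and Cxcr2 had their highest values in LPS libraries, Hp at 614 in Dicer-deficient library 20 and Cxcr2 at 262 in Dicer-deficient library 18. Of 11 border macrophage markers, which mark the macrophages of the meninges and vessels, the summed level was 789 to 1750 after LPS and 1504 to 1915 at steady state. Most of it was Stab1, at 1011, 758, 1469 and 1690.1 and 1382, 1581, 1457, 1208 and 1086, and 2 other members had their highest values in LPS libraries, Siglec1 at 12.5, 10.8, 40.8 and 17.1 against 0, 12.5, 8.10, 0 and 0 and Clec4n at 0, 0, 11.4 and 6.98 against 0, 0, 0, 1.37 and 0. The other 8 were at 0 to 14 after LPS. Among these, Mrc1, a mannose receptor, was at 1.39, 0, 0 and 12.1 after LPS and at 61.3, 90.3, 48.6, 65.8 and 167 at steady state. Lyve1 and Cd163 had no read in any LPS library. In bulk RNA, fewer cells of a type and less RNA per cell cannot be told apart. Of 8 lymphocyte markers 7 were at 0 in all libraries, and Klrb1c was at 4.16 in 1 LPS library. The 12 neuronal markers summed to at most 82 in any library, with 5 of them at 0 in all. Hemoglobin transcripts were highest in Dicer-deficient LPS library 20 and control LPS library 15. The part of these cells in the results below was not tested.

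**Figure D1:**
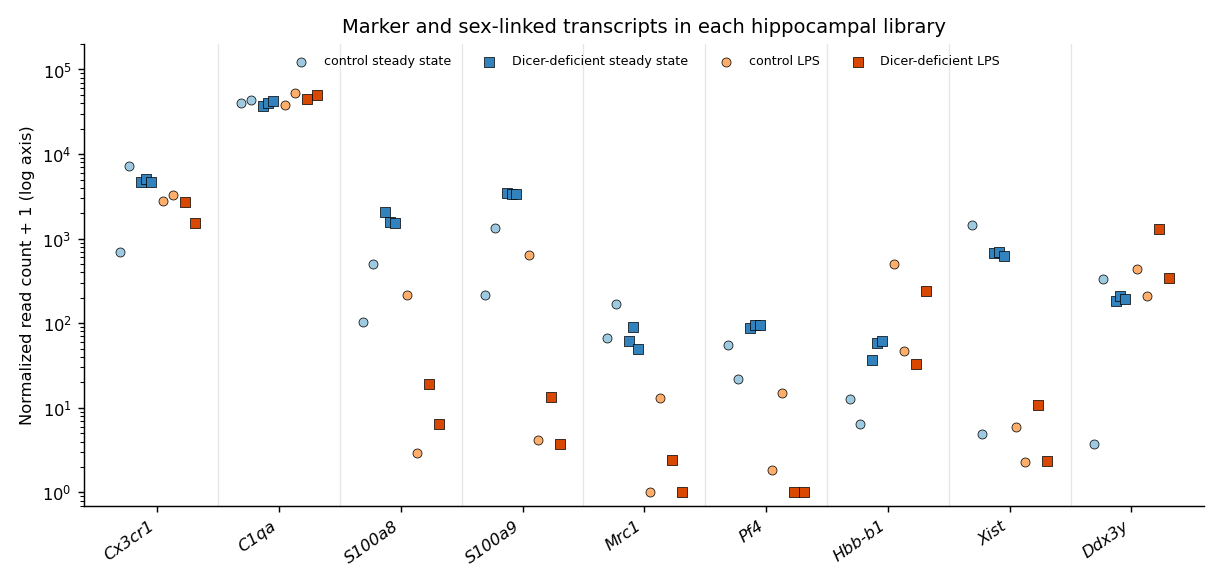
Normalized read counts plus 1 (log axis) of marker genes and of 2 sex-linked transcripts in the 9 hippocampal libraries, 1 point per library, with circles for control and squares for Dicer-deficient microglia. C1qa lies within 36511 and 53139 in all libraries, while S100a8, Mrc1, Pf4 and Xist are lower in all or most LPS libraries than in most steady-state libraries.

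Of 11258 genes tested, 1926 (17.1%) differed 6 h after LPS. Among them 920 (8.17%) rose and 1006 (8.94%) fell, and 749 and 794 of these changed at least 2-fold. In 1394 of the called genes, 684 higher and 710 lower, no LPS library overlapped any steady-state library. Calls and overlap rest on the same values, and the share without overlap over all tested genes is not given here. The shares of all tested genes that rose and fell are the background for the counts of each list below. The median over all tested genes was 0.04. The direction was the same in both genotypes for 1924 of the called genes. The calls came from both genotypes fitted together, which favours genes of like direction. This count therefore does not test whether the genotypes respond alike. The first principal component of the tested genes, 31.1% of the variance, placed the LPS libraries at 69.6 to 77.8 and the steady-state libraries at -93.3 to -26.9. Changes were ranked among called genes of at least median level without overlap, leaving out unnamed gene models. The largest increases were those of Spp1, Mt2, Saa3, Fgr and Cd300lf, and the largest decreases those of Cbfa2t3, Gpr34, Apoe, Slc2a5 and H2-Aa. A lack of overlap was a condition of this ranking, so it is not a separate result for the ranked genes. Without Dicer-deficient LPS library 20 the count of called genes was 1283, 517 higher and 766 lower.

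Dicer1, the targeted gene, encodes the nuclease that cuts precursor microRNAs. It was at 80.5, 93.5, 60.4 and 110.4 after LPS and at 18, 33, 60.8, 92.5 and 43 at steady state. The groups overlapped, with a change of 0.91 ± 0.50 (limma adjusted p = 0.242). Reads were counted per gene symbol, and the deleted part of the gene cannot be seen from them, so these values do not check the genotype labels.

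Spp1, which encodes the secreted phosphoprotein osteopontin, had the largest change of the genes named by rule. It was at 3768 and 1366 in Dicer-deficient and at 1046 and 1672 in control libraries after LPS, against 0, 7.47 and 6.48 and 43.2 and 36 at steady state. Every LPS library was above 1000 and every steady-state library below 50, a change of 7.28 ± 0.76 (limma adjusted p = 9.55e-06). Fgr, a Src-family kinase of myeloid cells, rose by 5.75 ± 0.69 from 24 ± 19.6 (SD, n = 5) to 849.95 ± 391 (SD, n = 4). Cd300lf, an inhibitory receptor of myeloid cells, was at 1036, 1619, 1238 and 1785 after LPS and at 20.1, 61.7, 52.7, 28.8 and 16.4 at steady state, without overlap (5.45 ± 0.37, limma adjusted p = 1.88e-07). Il2rg, the gamma chain shared by several interleukin receptors, rose by 4.33 ± 0.59 and was at 269 to 669 after LPS against 3.13 to 52.3.

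Genes of bacterial sensing moved both ways. Of 20 tested genes on a list of Tlr receptors, their partners and adaptors, 6 rose and 2 fell, with a median of 0.73. Cd14, Tlr2, Tlr1, Tlr6, Tirap and Myd88 rose, whereas Tlr4 and Ly96 fell. Of all tested genes 8.17% rose and 8.94% fell, so the share of the list that fell was near that of all genes. With edgeR 1 member was called lower, and refits without 1 library called 1 to 2 lower. Tlr2, the receptor for bacterial lipoproteins, was at 1155, 1420.1, 2074 and 2324 after LPS and at 187, 249.8, 230.1, 327 and 194 at steady state. The lowest LPS library was thus more than 3-fold above the highest steady-state library (2.80 ± 0.21, limma adjusted p = 3.9e-07). Cd14, the coreceptor of Tlr4, was at 7864, 11392, 7028 and 7790.4 against 1286, 1369, 1627, 2103 and 1276, again without overlap (2.48 ± 0.20, limma adjusted p = 5.97e-07). Tlr1, a partner of Tlr2, was at 283, 266, 429.9 and 384 against 57.1, 64.2, 56.7, 145 and 211 and rose by 1.75 ± 0.28.

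Tlr4 itself fell by 1.00 ± 0.26 on the log2 scale, from 235 to 500 at steady state to 93.3 to 211 after LPS (limma adjusted p = 0.0147), a call lost without Dicer-deficient LPS library 20. Ly96, the secreted partner of Tlr4 that binds LPS, was low throughout, at 1.39, 4.04, 0.820 and 0.630 and 25.4, 13.1, 8.10, 16.4 and 22.7 (-2.77 ± 0.82, limma adjusted p = 0.0292). Its call was lost with edgeR, and without Dicer-deficient LPS library 18, either control LPS library or either control steady-state library. Myd88 rose by 1.00 ± 0.22 (limma adjusted p = 0.00572), whereas Ticam1, the adaptor of the interferon branch, was at 1.32 ± 0.44 (limma adjusted p = 0.0518).

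Among 17 tested NF-kB subunits and inhibitors 9 rose and 0 fell with limma, and the same numbers with edgeR and DESeq2, against 8.17% and 8.94% of all tested genes, with a median of 1.40. At an unadjusted p under 0.05 limma also gave 9 higher and 0 lower. Nfkbia, which holds NF-kB in the cytoplasm and is itself an NF-kB target, was at 6061, 5532, 4174 and 3027 after LPS and at 668, 674, 729, 825 and 426 at steady state. All LPS libraries were above 3000 and all others below 900 (2.85 ± 0.20, limma adjusted p = 2.82e-07). Ikbke, a kinase of the interferon branch, was at 142, 479.6, 213 and 194 after LPS, where the 5 steady-state libraries held 0, 0, 2.43, 0.690 and 1.57 (7.07 ± 0.77, limma adjusted p = 1.42e-05). Bcl3, a nuclear IkB protein, rose by 4.39 ± 0.55 from 3.74 to 25.1 at steady state to 193 to 468.

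The subunits Nfkb1 (-0.41 ± 0.22), Rela (-0.18 ± 0.21) and Rel (0.87 ± 0.68) were not called, while Nfkb2 (2.07 ± 0.51) and Relb (2.00 ± 0.34) rose, the call of Nfkb2 being lost without Dicer-deficient LPS library 20. These 5 genes encode the DNA-binding subunits. The other members that rose were the inhibitors Nfkbia, Nfkbib, Nfkbiz and Bcl3, the adaptor Tnip1, the deubiquitinase Tnfaip3 and the kinase Ikbke.

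Most genes known to restrain the response rose. Of 21 tested feedback inhibitors 16 rose and 0 fell with limma, against 8.17% and 8.94% of all tested genes, with a median of 2.47. The numbers were 16 and 0 with edgeR, 17 and 0 with DESeq2, and 18 and 1 at an unadjusted p under 0.05 with limma. Some members, such as Nfkbia and Tnfaip3, also stand on the NF-kB list. Socs3, an inhibitor of cytokine receptor signalling, was at 3951 and 5123 in Dicer-deficient and 2119 and 2794 in control libraries after LPS, against 632, 669.6 and 598 and 191 and 175. The groups did not overlap (3.24 ± 0.20, limma adjusted p = 1.14e-07). Il1rn, the decoy ligand of the interleukin-1 receptor, was at 293, 651, 957 and 722 after LPS and at 6.34, 8.72, 3.24, 6.86 and 4.70 at steady state (6.45 ± 0.50, limma adjusted p = 5.53e-07). The phosphatases Dusp1 (2.75 ± 0.22) and Dusp2 (4.66 ± 0.44), which switch off MAP kinases, rose as well, whereas Atf3 was at -0.87 ± 0.39 (limma adjusted p = 0.148).

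Secreted cytokines rose in part. Of 17 tested, 8 rose, 1 fell (Tgfb1, -1.02 ± 0.24) and the median was 0.57. Tnf, tumour necrosis factor, was at 1288, 1017, 916 and 1100.5 after LPS and at 33.8, 44.2, 68.9, 114 and 47.7 at steady state. All LPS libraries lay within 916 and 1288, far above the others (4.20 ± 0.31, limma adjusted p = 3.84e-07). Il1b, interleukin-1 beta, was at 1942 and 1497 in Dicer-deficient but at 381 and 468 in control libraries after LPS, against 20.1, 36.8 and 23.5 and 25.4 and 71.2 (4.76 ± 0.48, limma adjusted p = 6.48e-06). The Dicer-deficient LPS libraries were the 2 highest, yet the interaction of LPS and genotype was at 2.71 ± 0.69 and was not called (limma adjusted p = 0.459).

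Il12b, a subunit of interleukin-12, rose by 3.87 ± 0.81 from 0 to 9.39 at steady state to 58.3 to 93.8. The interleukin Il6 was at 62.5, 95.5, 49.8 and 22.9 and 41.2, 44.2, 59.1, 129 and 57.1, with overlapping groups (-0.23 ± 0.53, limma adjusted p = 0.824).

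Of 16 tested chemokines 14 rose and 1, Ccl6, fell (-1.75 ± 0.30), against 8.17% and 8.94% of all tested genes. The median was 2.38. Ccl5, which attracts T cells and monocytes, was at 715 and 2221 in Dicer-deficient and 4761 and 4212 in control libraries after LPS, against 113, 61.7 and 45.4 and 72.7 and 185. Its lowest LPS library was above every steady-state library (4.67 ± 0.38, limma adjusted p = 7.23e-07). Ccl3 was at 1698, 2115, 2366 and 2354 against 386, 188, 356, 630.04 and 515 (2.39 ± 0.22), and Ccl4 at 739.9, 683, 905 and 991 against 159, 257, 222, 232 and 279 (1.82 ± 0.20). Both attract myeloid and T cells and did not overlap between the treatments. Ccl17, a ligand of Ccr4, had no read in any steady-state library and was at 6.94, 92.2, 6.53 and 5.71 after LPS, at least 58.6-fold higher, with the floor set at 3 reads over the group. Dicer-deficient LPS library 20 carried most of this, and without it the bound was 13.5-fold. Ccl17 passed the filter only through the LPS libraries and could not be tested when 1 of them was left out.

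Receptors for cytokines and chemokines split evenly. Of 30 tested receptors 6 rose and 6 fell, against 8.17% and 8.94% of all tested genes, with a median of -0.12. Csf2rb, the beta chain of the receptors for granulocyte-macrophage colony-stimulating factor and interleukin-3, was at 3548, 4443, 2593 and 2206 after LPS and 1188, 967, 817, 745 and 556 at steady state. Il1r2, a decoy receptor for interleukin-1, was at 1644 and 1088 in Dicer-deficient and 227 and 336 in control libraries after LPS, against 18.5 to 110 at steady state. Neither overlapped between the treatments, with changes of 1.96 ± 0.17 (limma adjusted p = 1.46e-06) and 4.17 ± 0.38 (limma adjusted p = 2.52e-06). Il4ra, the alpha chain of the interleukin-4 receptor, rose by 1.86 ± 0.19. Among the 6 that fell were Il10rb (-1.02 ± 0.17), Il21r (-1.52 ± 0.25) and Tnfrsf17 (-3.88 ± 0.74).

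Of 40 tested genes of the type I interferon response, which block viral replication or relay the interferon signal, 16 rose and 0 fell with limma, and the median was 1.49. The numbers were 15 and 0 with edgeR, 18 and 0 with DESeq2, and 26 and 0 at an unadjusted p under 0.05 with limma. Ifi35, an interferon-induced leucine zipper protein, was at 540.01, 677, 824 and 978 after LPS and 178, 180.01, 295, 357 and 271 at steady state, without overlap (1.52 ± 0.21, limma adjusted p = 0.000139). Stat2, which carries the signal of the interferon receptor, was at 171, 267, 506 and 736 against 84.6, 82.8, 71.3, 189 and 241. Dicer-deficient LPS library 18, at 171, was below control steady-state libraries 1 and 2, so the groups overlapped (1.46 ± 0.25, limma adjusted p = 0.000736). Slfn2, a member of the Schlafen family, rose by 3.59 ± 0.58.

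Isg15, a ubiquitin-like modifier, was at 90.2, 385, 348 and 621 after LPS against 43.6 to 70.4 at steady state and rose by 2.35 ± 0.42, with Dicer-deficient library 18 the lowest after LPS. Ifitm3, which blocks entry of viruses, was at 27.8, 268, 694 and 993 against 36.8 to 147 and was not called (limma adjusted p = 0.111). The median of the 40 effects was 2.24 in control and 0.89 in Dicer-deficient libraries, and limma, edgeR and DESeq2 called an interaction with genotype for 0, 0 and 1 of the 40, with 13 at an unadjusted p under 0.05 in limma. Refits without 1 library called 13 to 17 members higher, except for 22 without Dicer-deficient LPS library 18, which had the fewest reads.

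The GTPases known from the response to interferon gamma followed in part: of 15 tested genes 5 rose and 1, the transcription factor Irf8, fell (-0.78 ± 0.18, lost without genotype as a covariate). Gbp2, a guanylate-binding protein, was at 193, 414, 235 and 350.3 after LPS and 2.11, 25.5, 13.8, 30.2 and 13.3 at steady state. The groups were far apart (4.29 ± 0.62, limma adjusted p = 0.000183). Gbp7 rose by 0.72 ± 0.17, a call lost without genotype as a covariate. The median of the list was 0.63.

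Promoter sequence is shown for 6 genes of these lists that rose, because they hold letters like the DNA sites of the 2 branches. Each stretch lies before the transcription start in the RefSeq promoter table of GRCm38.p6, on the strand of the gene, and Cxcl2, Cxcl10 and Gbp5 were chosen after their values were seen. Capitals mark every match on either strand of a kB-like motif (GGGA, 4 bases of any kind, CC) or of an interferon-response-like motif (TTTC, 2 bases of any kind, TTTC), for the motif or motifs named with the gene. In Cxcl2, 2 kB-like matches on opposite strands overlap.
Nfkbia, kB-like, chr12:55492648-55492879, minus strand: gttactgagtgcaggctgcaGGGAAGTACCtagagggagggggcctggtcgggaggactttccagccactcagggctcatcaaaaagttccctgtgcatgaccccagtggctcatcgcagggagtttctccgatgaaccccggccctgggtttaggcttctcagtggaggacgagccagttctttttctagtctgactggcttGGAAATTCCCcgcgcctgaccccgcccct
Tlr2, kB-like, chr3:83841751-83841800, minus strand: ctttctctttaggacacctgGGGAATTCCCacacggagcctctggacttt
Cxcl2, kB-like, chr5:90903782-90903832, plus strand: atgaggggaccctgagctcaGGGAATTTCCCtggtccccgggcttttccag
Cxcl10, interferon-response-like then kB-like, chr5:92348963-92349122, minus strand: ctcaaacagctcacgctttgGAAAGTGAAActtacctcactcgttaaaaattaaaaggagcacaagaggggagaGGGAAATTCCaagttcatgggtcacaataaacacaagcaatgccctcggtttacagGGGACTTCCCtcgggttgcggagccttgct
Gbp5, interferon-response-like then kB-like, chr3:142496749-142496886, plus strand: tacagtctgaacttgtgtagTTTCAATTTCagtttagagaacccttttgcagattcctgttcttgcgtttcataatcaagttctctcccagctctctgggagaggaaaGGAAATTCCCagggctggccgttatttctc
Gbp2, interferon-response-like, chr3:142620584-142620633, plus strand: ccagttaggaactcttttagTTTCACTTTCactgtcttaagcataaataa

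Cxcl10, a chemokine of both branches, holds both motifs and was at 458, 694, 476 and 1245 after LPS against 139.5, 117, 134, 37.7 and 109, a change of 2.77 ± 0.38 (limma adjusted p = 0.000119). Cxcl2, a chemokine for neutrophils, was at 125, 204, 69.3 and 63.5 against 7.40, 3.11, 13.8, 4.11 and 32.9 (3.43 ± 0.75). Gbp5, a partner of Gbp2 in the same family, was at 86.1, 121, 54.6 and 60.9 against 32.8, 36.8, 15.4, 6.17 and 6.26 (2.41 ± 0.58). For these 3 genes the 4 LPS libraries were above the 5 others.

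Counted in the 250 bases before the start, the interferon-response-like motif was in 9 of 10 matched GTPase genes and in 10 of 30 matched genes of the type I interferon response. It was in 3.46% of all 27025 genes of the promoter table, in 5.56% of 702 matched genes that rose and in 2.98% of 773 that fell. The kB-like motif, being short, was in 19.7% of all genes of the table and in 26.0% of 8635 matched tested genes. It was in 8 of 13 NF-kB genes, 6 of 11 chemokines, 11 of 19 feedback inhibitors and 4 of 26 homeostatic genes, and in 26.9% of genes that rose and 26.8% of genes that fell. A match is only a description of letters, and no binding was measured.

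Acute phase proteins and metallothioneins gave some of the largest changes. Of 17 tested members 9 rose and 0 fell with limma, against 8.17% and 8.94% of all tested genes, with a median of 1.79. The numbers were 9 and 0 with edgeR, 10 and 0 with DESeq2, and 10 and 0 at an unadjusted p under 0.05 with limma. Saa3, a serum amyloid protein made by macrophages, was at 3666, 9191, 4411 and 3891 after LPS and 131, 136, 145, 19.2 and 103 at steady state. Dicer-deficient LPS library 20 was more than 2-fold above the others, and no library overlapped (5.90 ± 0.39, limma adjusted p = 1.88e-07). Mt2, a metal-binding protein, was at 4928 and 5865 in Dicer-deficient and 1669.8 and 1591 in control libraries after LPS, against 11.7 to 147 (6.15 ± 0.42, limma adjusted p = 2.32e-07). Mt1 showed the same order after LPS, at 6005 and 6739.96 and 3479 and 3079, against 217 to 515 (3.75 ± 0.27). Lcn2, an iron-scavenging acute phase protein, rose by 2.02 ± 0.33, a call lost without genotype as a covariate, but its Dicer-deficient steady-state libraries, at 604, 708 and 969.8, were above the control LPS libraries, at 516 and 308.

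Glucocorticoids are stress hormones that LPS is known to raise in blood. Of 16 tested genes known to respond to them 9 rose and 1 fell (Cd163, which had reads in 4 libraries and was tested only with all of them), with a median of 1.39, and the list shares Nfkbia and Il1r2 with others. Klf9, a transcription factor, was at 487, 382, 357 and 244 after LPS and 6.34, 28, 37.3, 27.4 and 3.91 at steady state, at least 6-fold apart at the nearest libraries (4.53 ± 0.59, limma adjusted p = 7.17e-05). Fkbp5, a cochaperone of the glucocorticoid receptor, rose by 1.18 ± 0.24, and Tsc22d3 by 1.48 ± 0.27.

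Of 20 tested glycolytic genes 5 rose and 2 (Hk3 and Pfkfb4) fell, with a median of 0.99. Pfkfb3, which makes the activator of phosphofructokinase, was at 2134, 1957, 2450.4 and 1528 after LPS and 130.01, 126, 114, 261 and 451 at steady state (3.34 ± 0.29, limma adjusted p = 1.24e-06). Slc2a1, a glucose transporter, rose by 3.00 ± 0.30 and Ldha, lactate dehydrogenase, by 1.63 ± 0.22. All 3 were without overlap.

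Of 16 tested genes of adhesion and migration 5 rose and 3 fell with limma, against 8.17% and 8.94% of all tested genes, with a median of 0.57. With edgeR and with DESeq2 2 were called lower. Every refit without 1 library called fewer than 3 lower, 1 without control steady-state library 2 and 2 in the others. Ehd1, which recycles membrane proteins, was at 1220.2 and 1413 in Dicer-deficient and 369 and 651 in control libraries after LPS, against 21.2 to 81.0 (4.49 ± 0.32, limma adjusted p = 3.13e-07). Plaur, the urokinase receptor, rose by 2.75 ± 0.37 and Marcksl1, an actin-linked protein, by 3.76 ± 0.52. Among the synthesis genes of eicosanoids, lipid mediators made from arachidonic acid, 4 of 12 fell and 1, Ptges, rose, a call lost without Dicer-deficient LPS library 20. Tbxas1, thromboxane synthase, was at 142, 147, 239 and 232 after LPS against 606, 534, 664, 1117 and 1095 (-2.13 ± 0.18, limma adjusted p = 1.03e-06). Ptgs1 fell by 1.00 ± 0.16 and Hpgds by 1.78 ± 0.29 on the log2 scale.

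**Figure D2:**
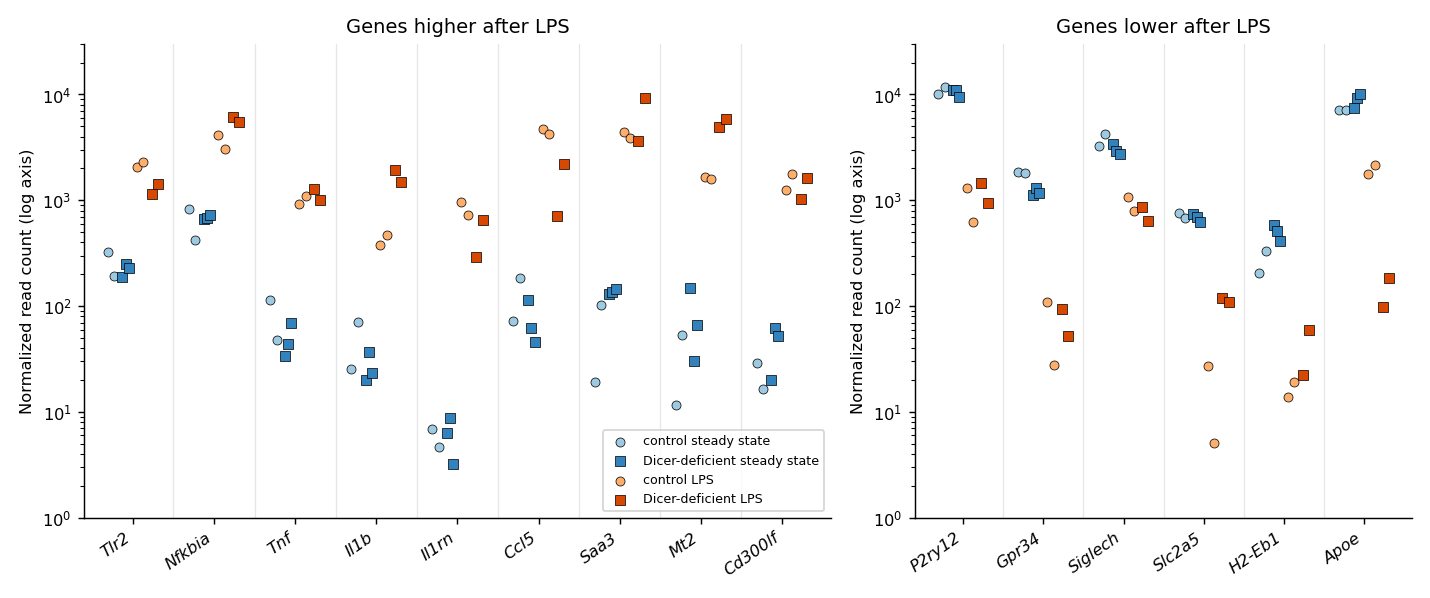
Normalized read counts (log axis) of 9 genes that rose and 6 genes that fell in the 9 hippocampal libraries, 1 point per library. In each of the 15 genes the 4 LPS libraries lie on 1 side of the 5 steady-state libraries, which was a condition for those named by their rank of change. For Apoe the Dicer-deficient LPS libraries, at 97.2 and 186, lie apart from the control LPS libraries, at 1756 and 2169.

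Class I molecules show peptides from inside the cell to CD8 T cells, and class II molecules show peptides taken up from outside to CD4 T cells. Of 18 tested genes of class I presentation and the immunoproteasome 5 rose and 0 fell with limma, against 8.17% and 8.94% of all tested genes, with a median of 0.66. The numbers were 5 and 0 with edgeR, 6 and 0 with DESeq2, and 9 and 1 at an unadjusted p under 0.05 with limma. H2-K1, a classical class I molecule, was at 1599, 3863, 2037 and 4556 after LPS and 964, 1039, 1086, 1089 and 734 at steady state (1.50 ± 0.27, limma adjusted p = 0.00113). H2-Q7 rose by 3.04 ± 0.62, though near-identical copies of this gene make its reads uncertain, and Psme1, an activator of the proteasome, rose by 0.63 ± 0.19, a call lost in 5 refits. The count of members that rose was 2 without Dicer-deficient LPS library 20, control LPS library 16, or control steady-state library 1 or 2, and 3 without Dicer-deficient steady-state library 4. A count of 2 of 18 is near the share of all tested genes that rose.

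Of 10 tested class II genes 6 fell, against 8.94% of all genes, 1 (the costimulator Cd86, 1.14 ± 0.22) rose, and the median was -1.39. H2-Aa, the alpha chain of a class II molecule, was at 18.1, 148, 103 and 62.2 after LPS and 1078, 1119, 1494, 409 and 1248 at steady state. H2-Eb1, a beta chain, was at 22.2, 59.2, 13.9 and 19 against 582, 513, 416, 208 and 329.5, and H2-Ab1 at 172, 482, 91.4 and 69.2 against 1078, 1218, 1018, 543 and 1100.4. None of the 3 overlapped (-3.89 ± 0.50, -3.83 ± 0.35 and -2.54 ± 0.33, the largest of their limma adjusted p being 7.6e-05). Cd74, the invariant chain that travels with class II, was at 652, 1504, 279 and 474 against 475, 663, 646, 193 and 427 and was not called (0.57 ± 0.29). Class II genes are also known from border macrophages, monocytes and dendritic cells. Of the 11 border macrophage markers 8, among them Mrc1, Pf4, Lyve1 and Cd163, were at 0 to 14 in the LPS libraries, whereas Siglec1 and Clec4n had their highest values there, Stab1 overlapped between the treatments, and the sums of both marker lists are those given above. Their part in the class II result was not tested.

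Most transcripts that mark microglia at rest fell. Of 34 tested homeostatic genes 21 fell and 3 (Gpr84, Adora3 and Cd33) rose, against 8.94% and 8.17% of all genes, with a median of -0.94. P2ry12, the receptor for ADP that guides microglial processes, was at 1460.4, 934, 1295 and 625 after LPS and 10906, 10947, 9526, 10103 and 11810.5 at steady state. The highest LPS library was more than 6-fold below the lowest steady-state library (-3.36 ± 0.22, limma adjusted p = 1.24e-07). Gpr34, a lysophosphatidylserine receptor, was at 94.4, 52.5, 108 and 27.9 against 1112, 1304, 1180.5, 1853 and 1792 (-4.50 ± 0.34, limma adjusted p = 3.84e-07). Siglech, a sialic acid-binding lectin, was at 868, 639.8, 1069 and 786 against 3408, 2954, 2726, 3252 and 4255 (-2.02 ± 0.17).

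Slc2a5, a fructose transporter, was at 119 and 109 in Dicer-deficient and 26.9 and 5.08 in control libraries after LPS, against 618 to 753 (-4.03 ± 0.54). The transcription factors Sall1 (-1.67 ± 0.26) and Mef2c (-1.42 ± 0.18) and the receptor Tgfbr1 (-1.46 ± 0.20) fell with them. The fall was not shared by all: Csf1r, the receptor for colony-stimulating factor 1, was not called (-0.48 ± 0.18, limma adjusted p = 0.087), although its groups did not overlap. P2ry6 (0.23 ± 0.20) and C1qa (0.19 ± 0.21) were not called either. Gpr84, a receptor for fatty acids counted on the same list, was at 7295, 11357, 3074 and 5547 against 926, 1306, 1267, 745 and 557 (2.84 ± 0.21, limma adjusted p = 3.84e-07). Aif1, which encodes the marker Iba1, fell by 1.53 ± 0.18 on the log2 scale.

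Cx3cr1 was not called (-0.48 ± 0.49, limma adjusted p = 0.572). It was at 2718, 1523, 2795 and 3238 after LPS and 4661, 5109, 4656, 688 and 7139 at steady state, where control library 1 was below all LPS libraries and the other 4 were above them.

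Among called genes of at least median level without overlap, the largest decrease was that of Cbfa2t3, a transcriptional corepressor on none of the lists. It was at 0, 47.1, 35.9 and 19.7 after LPS and 621, 639.7, 614, 380.5 and 584 at steady state (-5.41 ± 0.81, limma adjusted p = 0.000248). Nav1, a microtubule-binding protein, was at 4.16, 51.8, 27.7 and 22.2 against 478, 219, 291, 228 and 117 (-3.53 ± 0.59). Thrsp, a regulator of lipid synthesis, was at 45.8, 23.6, 19.6 and 10.8 against 224, 389, 366, 205 and 163 (-3.38 ± 0.38), and Tmem140 fell by 3.45 ± 0.50 on the log2 scale. Every LPS library was below every steady-state library in these 4 genes, which the rule that named them required.

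**Figure D3:**
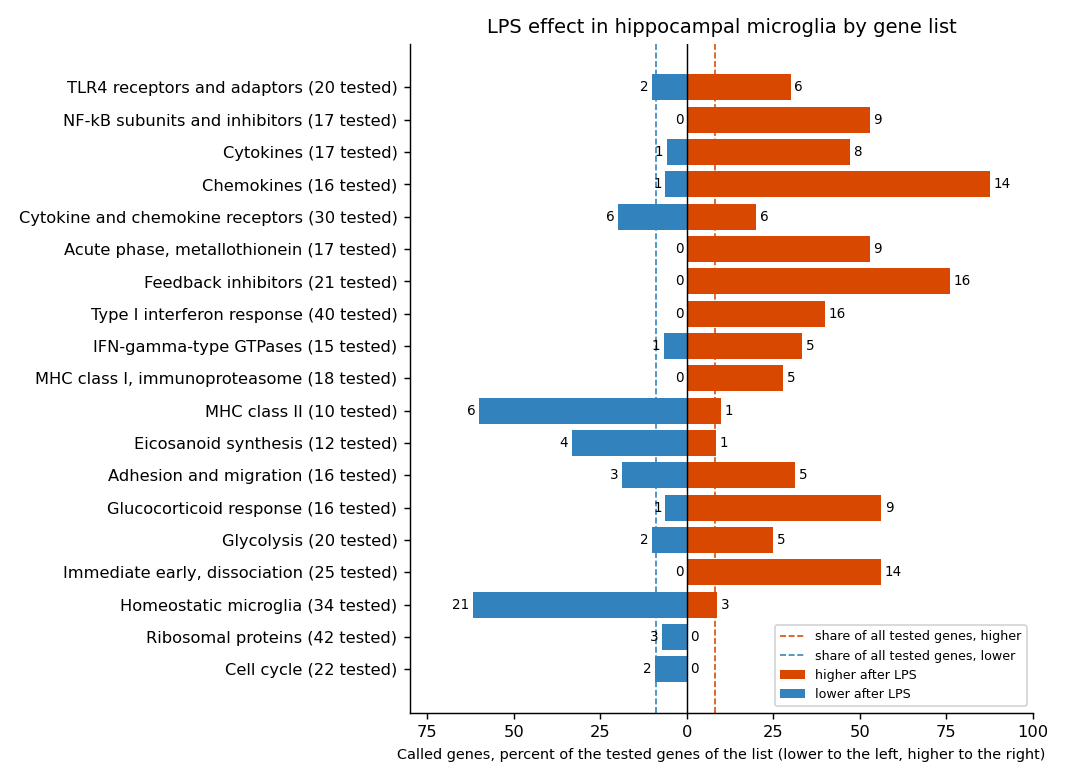
Share of the tested genes of each list that fell (left) or rose (right) 6 h after LPS, in percent, for the lists shown, with the number of genes at each bar and dashed lines at the shares of all tested genes, 8.94% and 8.17%. Of the lists shown, which leave out the cell type markers, chemokines have the largest share that rose (14 of 16), and homeostatic and class II genes the largest shares that fell (21 of 34 and 6 of 10).

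Markers of other cells were tested gene by gene. Of 15 tested monocyte and neutrophil markers 7 fell and 1 (Cxcr2) rose, with a median of -2.91. With edgeR 3 were called lower and 1 higher, and with DESeq2 6 lower and 0 higher. Cxcr2 was at 262, 131, 4.08 and 24.8 after LPS and 0, 0, 30, 0 and 0 at steady state, with overlapping groups. S100a9 was at 12.5, 2.69, 634 and 3.17 after LPS and 3429.8, 3372, 3355, 215 and 1326 at steady state, where control LPS library 15 was above control steady-state library 1 (-6.39 ± 1.21, limma adjusted p = 0.00163), and the call was lost with edgeR. F13a1, a coagulation factor of monocytes and border macrophages, was at 0, 8.75, 0 and 1.27 against 34.9, 62.3, 149.9, 41.1 and 67.3 (-4.79 ± 0.86). Of 9 tested border macrophage markers 7 fell, with a median of -4.18, or -4.79 with Cd163 and Lyve1 at their bounds. Cd163 was at least 43.2-fold and Lyve1 at least 40.0-fold lower, against a floor of 3 reads over the group. Both passed the filter only through steady-state libraries. Pf4, a platelet chemokine that border macrophages also make, was at 0, 0, 0.820 and 14 against 86.7, 93.4, 95.6, 54.9 and 21.1 (-4.82 ± 0.94). Of 5 tested erythroid genes 0 were called with limma, 1 with edgeR and 2 with DESeq2, 3 were higher at an unadjusted p under 0.05 in limma, and the median was 2.30, while 5 were called higher without Dicer-deficient LPS library 18 and 1 without Dicer-deficient steady-state library 6. For Hbb-b1 the values were 31.9, 242, 502 and 45.7 and 35.9, 57.3, 59.95, 11.7 and 5.48 (limma adjusted p = 0.0693). Cdh5, an endothelial cadherin, was at 4.16, 7.40, 6.53 and 10.8 after LPS and at most 0.69 at steady state (2.78 ± 0.78, limma adjusted p = 0.0228). It passed the filter only through the 4 LPS libraries, could not be tested when 1 of them was left out, and its call was lost with DESeq2 and without control steady-state library 2. Cldn5, another endothelial gene, was at 0 in all but 1 library.

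The dependence on genotype was called for 2 of 11258 genes (0.0178%), and 594 had an unadjusted p under 0.05. With edgeR 2 genes were called and with DESeq2 37, and leaving out single libraries gave 1 (without Dicer-deficient steady-state library 5) to 7 (without Dicer-deficient LPS library 20). It gave 4 without Dicer-deficient LPS library 18 or control LPS library 15, 5 without control steady-state library 1 and 6 without control LPS library 16. An interaction here is the LPS effect in Dicer-deficient minus that in control microglia. Apoe, the lipid carrier apolipoprotein E, was at 97.2 and 186 in Dicer-deficient and at 1756 and 2169 in control libraries after LPS. At steady state it was at 7449, 9316 and 10009 and 7099 and 7125, so that the LPS libraries were below all others and the Dicer-deficient ones the lowest. The effect was -6.03 ± 0.26 in Dicer-deficient and -1.86 ± 0.28 in control microglia, a difference of -4.16 ± 0.38 (limma adjusted p = 0.000371). Apoe is made by border macrophages and astrocytes as well. The 10 astrocyte markers, Apoe among them, summed to 1442 to 3000 after LPS and to 7900 to 10564 at steady state. Apoe itself made up most of each steady-state sum, so the fall of the sum does not describe the other members. Slc1a2, Aqp4 and Gfap were at 0 to 1.39 in all libraries, whereas Slc1a3, a glutamate transporter, was at 1566, 1214, 952 and 473 after LPS against 734, 549, 519, 697 and 695, and Clu, the chaperone clusterin, at 23.6, 31.6, 289 and 133 against 15.8, 24.3, 34, 112 and 75.9. The part of these cells in the Apoe result was not tested.

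Rps2, a protein of the small ribosomal subunit, was at 15.3 and 20.2 in Dicer-deficient and 419 and 669.6 in control libraries after LPS, against 117, 199 and 189 and 191 and 156. Levels thus went below steady state in one genotype and above it in the other (-3.15 ± 0.41 and 1.62 ± 0.45), a difference of -4.77 ± 0.61 (limma adjusted p = 0.0109). Processed copies of ribosomal protein genes make these reads uncertain. The next by p in either direction, none of them called, included Lilrb4a, an inhibitory receptor, at 55.5 and 141 and 347 and 472 after LPS against 131, 70.4 and 81 and 13 and 18.8 (interaction -4.64 ± 0.81, limma adjusted p = 0.184), and Mt1 (interaction 1.65 ± 0.35, limma adjusted p = 0.25). The others were Arsb (-2.05 ± 0.38), Rpl26 (-3.53 ± 0.67), Atp6v0a1 (1.59 ± 0.31), Il6st (1.61 ± 0.35), Gpr183 (1.62 ± 0.36) and Mir8112 (7.98 ± 1.66).

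**Figure D4:**
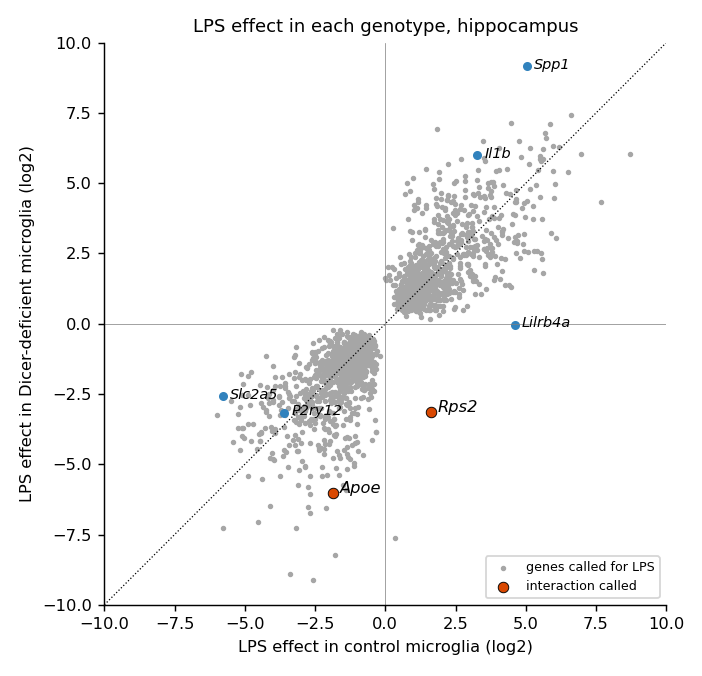
LPS effect (log2) in control microglia against that in Dicer-deficient microglia for the 1926 genes called for LPS (grey), with the 2 genes of called interaction in orange, 5 other genes in blue and a dotted line of equal effects. Apoe lies below the line at -1.86 and -6.03, and Rps2, not itself called for LPS, at 1.62 and -3.15.

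Total brain microglia of the same 2 genotypes were deposited in another table, with 2244169 to 4573063 reads per library. There were 8 libraries 6 h after LPS and 6 described as PBS, which are called steady state below. The hippocampal reference libraries are described as steady state, so the reference of the 2 comparisons may differ. The tables were normalized separately, so each was fitted on its own, and the difference between them was not tested. In total brain 2165 of 12213 tested genes rose (17.7%) and 2373 fell (19.4%). Of 1918 genes called in the hippocampus and tested there, 1633 (85.1%) were called in the same direction, which is 37.3% of the 4377 calls of total brain tested in both. Across 11179 genes the effects had a Pearson r of 0.73, given as a description since genes are not replicates. A number 5 stands on a Dicer-deficient steady-state library of both tables, and whether 1 mouse gave both is not given in the sources used here. Control LPS library 33 of total brain was near the steady-state libraries, with Klf9 at 19.8 against 334 to 531 in the other 7 after LPS. Without it 5218 genes were called in place of 4538.

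P2ry12 fell in both, in total brain by 2.68 on the log2 scale (limma adjusted p = 1.04e-05), and there it was at 737, 1088, 1287 and 1001 in Dicer-deficient and 1476, 974, 1061 and 6074 in control libraries after LPS, against 6438 to 11450 at steady state. Of 34 homeostatic genes 23 fell there, and 17 of 18 tested chemokines rose. The class II genes fell in fewer numbers, 3 of 10 with a median of -0.02. H2-Aa was at 61.9 to 305 after LPS and at 50.5 to 276 at steady state in total brain (0.18 ± 0.36, limma adjusted p = 0.735), so both of its groups lay below the hippocampal steady-state range of 409 to 1494 on the deposited scales.

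Only 8 genes were called in opposite directions in the 2 tables: Cd177, Chil3, F13a1, Ltf, Ngp, Pglyrp1, S100a8 and S100a9, all of them known from neutrophils or monocytes. In total brain S100a9 was at 1361, 98.3, 1431, 256, 41.3, 293, 94.1 and 1534 after LPS and at 1.00, 109, 2.90, 2.80, 3.40 and 0 at steady state, a rise of 5.99 ± 0.89 where the hippocampal value was -6.39 ± 1.21. The highest S100a9 values were thus those of steady-state libraries in the hippocampus and of LPS libraries in total brain. The summed monocyte and neutrophil markers in the hippocampus moved the same way, as given above, and their part in this was not tested. The 2 genes of called interaction were at these levels in total brain: Rps2 at 13, 26.3, 15.4 and 106 in Dicer-deficient and 546, 422, 348 and 233 in control libraries after LPS, against 11.6, 162 and 91.4 and 95.5, 90.00 and 253. Apoe was at 311, 223, 158 and 231 and 1690.2, 1104, 1329 and 1741 after LPS, against 692, 536 and 642 and 3211, 2239.7 and 1844, so that in that table the genotypes were already apart at steady state.

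**Figure D5:**
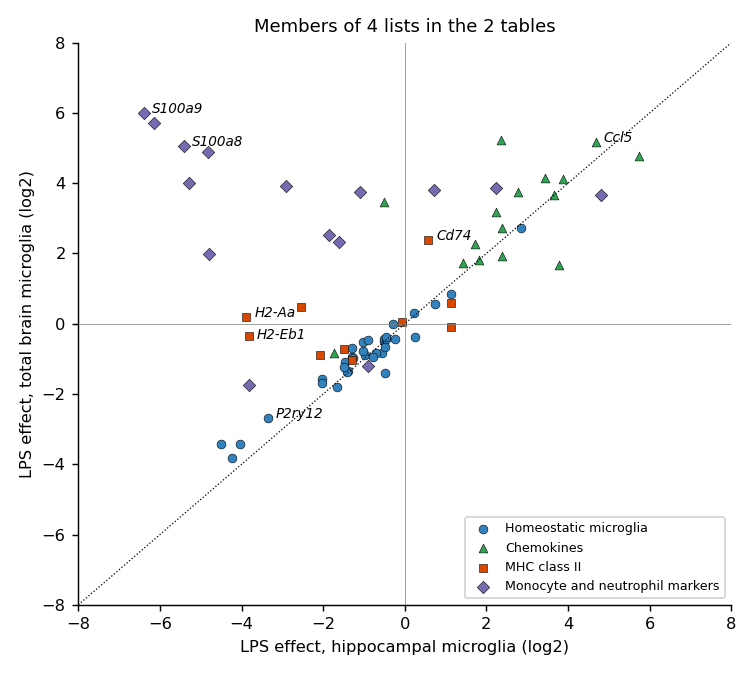
LPS effect (log2) in hippocampal against total brain microglia for the tested members of 4 lists, 1 point per gene, with a dotted line of equal effects. Most homeostatic genes and chemokines lie near the line, class II genes such as H2-Aa lie below 0 in the hippocampus and near 0 in total brain, and S100a8 and S100a9 lie at opposite signs.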

How the data were processed

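Bulk RNA of sorted microglia was sequenced, and a table of 24421 genes was deposited for the 9 hippocampal libraries and another for total brain. Per the submitters' processing notes, the tools named include HISAT 0.1.5, SAMtools, HOMER, DESeq2 and bcl2fastq, with the genome build mm9. The counting of strand and of multiply mapped reads is not given in the sources used here. The deposited values are a signal, made by the authors from read counts with a single scale factor for each library. Whole reads were recovered from the steps between low values, with a tolerance of 0.1 read. Replicate libraries differed beyond sampling noise.

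A gene was tested where 4 or more libraries (6 in total brain) had a value of 1 or above. Tests used limma 3.58.1 in R 4.3.3, with a trend, on log2(value + 1). Genotype and treatment were the terms, and a fit with 1 mean per group gave the effect in each genotype and the interaction. Benjamini-Hochberg adjusted p under 0.05 over all tested genes was called. The recovered reads were tested with edgeR 4.0.16 (quasi-likelihood) and DESeq2 1.42.0 as alternatives, beside other pseudocounts, filters, scalings and covariates and refits without each library. The fits were tested on simulated data. Groups came from the titles and strain entries. The labels do not state separate animals, so p-values measure the spread between libraries, which may be in part technical.

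Dicer1 was described first, and then the 10 highest and 10 lowest changes among called genes of at least median level without overlap, the 3 smallest p of each list, and the 5 smallest interaction p in each direction, without unnamed gene models. Genes named beyond this rule, to complete a list or for their library values (among them Cxcl2, Cxcl10, Gbp5, Il6, Ifitm3, Lcn2, Cd74, Cx3cr1 and Stab1), were chosen after their values were seen. Members and lists were chosen with earlier results of these data known. Promoter stretches are from the RefSeq table of GRCm38.p6, matched by symbol for 8635 of the 11258 tested genes. Reads of near-identical copies (H2-Q7, Rps2, Rpl26, Lilrb4a and the hemoglobin genes) are uncertain.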

Additional observations from a re-analysis of the deposited data

Results flagged for a closer look

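In the genes named above, 197 sets of values (a gene within the 4 LPS or the 5 steady-state libraries, each set mixing both genotypes) were searched for a single library far from the rest, and 15 were found, where chance gives about 1 in 20 sets. After LPS, Saa3 was at 9191.3 in Dicer-deficient library 20 against 3666.2 to 4410.6 in the others, and Plaur at 366.6 in the same library against 223.5 to 243.7. In control LPS library 15, S100a8 was at 217.0 against 1.9 to 18 and S100a9 at 633.8 against 2.7 to 12.5. Control LPS library 16 had Mrc1 at 12.1 against 0 to 1.4 and Pf4 at 14 against 0 to 0.8, so the few reads of Mrc1 and Pf4 after LPS were mostly in this library. Other border macrophage markers were highest after LPS elsewhere, such as Cbr2 at 11.4 in Dicer-deficient library 20 and Siglec1 at 40.8 in control library 15.

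At steady state, control library 1 had Cbfa2t3 at 380.5 against 583.9 to 639.7. Control library 2 stood high in Slc2a1 at 201.9 against 81.8 to 102.5, in the oligodendrocyte gene Cnp at 179.2 against 85.1 to 99.7, and in the ribosomal protein genes Rps4x at 443.8 against 198.7 to 241.1 and Rpl26 at 706.8 against 252.6 to 340.0. Dicer-deficient library 6 had Hpgds at 897.7 against 1381.4 to 1505.1 and F13a1 at 149.9 against 34.9 to 67.3. In the same library the hemoglobin genes Hbb-bt and Hbb-b2, which share reads, were both at 34.8, against 0 to 4.4 and 2.1 to 4.4.

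For 2 genes the LPS effect itself differed between the genotypes by the test of the interaction. The log2 effect for Apoe was -1.86 in control and -6.03 in Dicer-deficient microglia, a difference of -4.16. For Rps2 it was 1.62 and -3.15, a difference of -4.77. With 2 LPS libraries in each genotype, each of these differences rests on 4 LPS libraries.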

How the results depend on the processing

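Of 1926 genes called for LPS, 1048 were called with the same sign in every one of 19 settings (all but the fits to 1 genotype and the fit with Xist). The number of calls moved by over 1.5 times in 4 settings. Control libraries alone gave 695 calls (312 higher, 383 lower), Dicer-deficient libraries alone 1072 (473 and 599), and a fit with Xist as a second covariate, chosen after seeing the data, 456 (241 and 215). Leaving out 1 library gave 1283 to 1867 calls, 517 to 918 higher and 766 to 949 lower, the lowest being without Dicer-deficient LPS library 20. For the interaction with genotype, DESeq2 called 37 genes and refits without 1 library 1 to 7. Other pseudocounts, filters and scalings, no genotype term, edgeR and DESeq2 gave 1667 to 2265 calls. Among named genes called for LPS, Gpr183 alone changed sign, at -0.0097 in control libraries only. Named genes that were not called could change sign too, such as Rps2, at -0.98 in the main fit and 1.62 in control libraries. Of 94 named genes, 26 lost their call with Xist as a covariate, which nearly follows the treatment. No paired analysis was possible because the hippocampal groups share no replicate number in the labels. With 2 libraries in 3 of the 4 groups, effects within a genotype were less precise than the joint effect. Low genes such as Ly96 and Mki67 rested on few reads.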

Other observations

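Immediate early genes, which are known to rise within minutes of stimulation and also while tissue is dissociated, were higher after LPS: 14 of 25 rose and 0 fell with limma (8.17% and 8.94% of all tested genes did), 13 and 0 with edgeR, 15 and 0 with DESeq2, and 15 and 1 at an unadjusted p under 0.05 with limma, with a median of 1.33. Ier3, a survival gene, was at 6022, 7674, 3514 and 4997 after LPS and 374, 459.7, 534, 274 and 116 at steady state, in the library order used above (4.20 ± 0.24, limma adjusted p = 1.02e-07). Fos, a subunit of AP-1, was at 1991, 1862, 1605 and 1664 against 647, 776, 597, 555 and 337 (1.70 ± 0.18). Egr2, a zinc finger factor, had no read in any steady-state library and was at 18.1, 19.5, 33.4 and 26 after LPS, at least 51.1-fold higher against a floor of 3 reads over the group. It passed the filter only through the LPS libraries and could not be tested when 1 of them was left out. In total brain 13 of 25 of these genes rose and 1 fell. Whether dissociation differed between the treatments was not tested.

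Of 22 tested cell cycle genes 2 were called lower, a share near the 8.94% of all tested genes. Ccnd1, a cyclin of G1 phase, was at 323, 228, 440.5 and 347 after LPS against 842, 911, 1051, 913 and 603 (-1.39 ± 0.22, limma adjusted p = 0.000446). Mki67, the proliferation marker, was at 0, 0, 5.71 and 10.2 against 4.23, 8.72, 25.1, 32.2 and 33.6 (-2.78 ± 0.84, limma adjusted p = 0.0315), a call lost with edgeR and in 8 of the 9 refits without 1 library. Of 42 ribosomal protein genes 3 (Rps24, Rps14 and Rps4x) were called lower, a share below the 8.94% of all tested genes, with a median of 0.02, and 0 to 4 were called lower when 1 library was left out. The number was 0 without Dicer-deficient LPS library 20, and 1 without Dicer-deficient LPS library 18, Dicer-deficient steady-state library 5 or 6, or control steady-state library 2. Rps24 was at 394, 263, 690.1 and 752 after LPS against 938, 846, 839, 732 and 1139.6, with the control LPS libraries near the steady-state range (-0.94 ± 0.23, limma adjusted p = 0.0114), and its call was lost without Dicer-deficient LPS library 20.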
